A study of Mus musculus with 6 samples.

Results

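The genes described here are 42 factors of ribosome biogenesis, the proteins that transcribe, modify and process ribosomal RNA in the nucleolus. They were taken by symbol from a count table of 23413 genes of mouse alveolar macrophages, because an earlier look at these data had shown that several of them were lower with lipopolysaccharide (LPS) and higher again when vitamin D3 (VD3) was added. All 42 symbols were in the table and all 42 had enough counts to be tested, among 10724 genes in all. By role they fall into 6 groups: 3 core proteins of box C/D small nucleolar ribonucleoproteins (snoRNPs), 4 core proteins of box H/ACA snoRNPs, 4 nucleolar chaperones and scaffolds, 4 subunits of RNA polymerase I, 15 factors of the small ribosomal subunit and 12 of the large subunit. Since the values in LPS against control and in LPS + VD3 against LPS chose the genes, these values are given as a description. No p-value is printed for any of the 42. Where some are said to be called, the threshold on p only sorts them and is no test of the chosen genes. LPS + VD3 against control is the sum of those contrasts and shares their libraries, so it is described in the same way.

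The macrophages, which are resident phagocytes of the airspaces, came from the lung lavage of wild-type mice whose labels name neither age nor strain. The LPS group was kept for 4 h in vitro with 100 ng/mL LPS, the outer membrane component of Gram-negative bacteria sensed through Tlr4. The LPS + VD3 group received 100 ng/mL LPS and 50 nM VD3 for 4 h, and the control group carries only the label of a control, with its medium, time and vehicle not given. RNA-seq gave 2 libraries per group, and no label says that these came from separate mice or cultures. Any p-value below thus measures the spread between libraries, which may be technical. The labels of the LPS + VD3 libraries name LPS1 and LPS2, which the fit reported did not use as pairs.

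Ribosomes are built in the nucleolus, where RNA polymerase I transcribes a long precursor that is cut and modified into the ribosomal RNAs. Box C/D snoRNPs guide the methylation of that RNA and box H/ACA snoRNPs guide pseudouridylation, each with a small nucleolar RNA (snoRNA) that is often cut out of an intron of a host gene. Genes of this pathway are well-known targets of the transcription factor Myc, and their activity is tied to cell growth. The libraries measured messenger RNA of the factors and not ribosomal RNA or ribosomes.

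Total counts ran from 5022314 to 5465223 per library. The libraries of a group differed by unequal amounts: chi-square per degree of freedom between them was 2.45 in control, 25.3 in LPS and 9.64 in LPS + VD3. LPS 1 has a title numbered apart from the other 5 libraries, and what that stands for is not stated. Across all genes, LPS 1 minus LPS 2 had a Spearman's rho of 0.68 with transcript GC content, against 0.24 in control and 0.19 in LPS + VD3. With libraries scaled by their total alone, the median log2 fold change of all genes was -0.29 in LPS against control, where TMM scaling puts it at 0.01, so changes are read relative to the median of all genes. The cells carried their type's markers, with Marco between 1433 and 3912 and Itgax between 2154 and 2623 CPM (a gene's counts scaled to the library's TMM-adjusted total) in all 6 libraries. The 12 markers of that type went both ways, with log2 fold changes of -1.63 to 1.41 in LPS against control. There 6 were called lower (50%) and 3 higher (25%), beside 16.2% and 15.7% of all genes. In LPS + VD3 against control 5 were lower (41.7%) and 2 higher (16.7%), beside 17.3% and 17.7%. In LPS + VD3 against LPS none of the 12 was called by edgeR, DESeq2 or limma-voom, with 1 lower and 2 higher at an unadjusted edgeR p under 0.05. Of 20 markers of other lavage or lung cells, 7 were at 0 in all libraries (Sftpc, Cd3e, Nkg7, S100a9, Mpo, Col3a1 and Prg2), and the summed level of all 20 was 242 and 258 CPM in control against 49.9 to 71.1 in the treated libraries. Nearly all of that sum was Cdh1, at 222 and 238 CPM in control and 30.4 to 49.8 in the others. The part of these markers in the results below was not tested.

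The 42 genes together took 0.379% and 0.376% of all counts in control, 0.226% and 0.259% with LPS, and 0.331% and 0.358% with LPS + VD3. The widest 95% Wilson interval of these shares was 0.373% to 0.384%, which covers counting error only, since the labels mention no molecular identifiers and reads may be copies. Both LPS libraries were thus the lowest, and both LPS + VD3 libraries lay between LPS and control. On the TMM scale the median level over the 42 genes was 49.0 and 47.1 CPM in control, 31.0 and 39.0 with LPS, and 54.7 and 53.5 with LPS + VD3, so that here LPS + VD3 was above control. In bulk RNA, fewer cells of a type and less RNA per cell cannot be told apart.

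**Figure D1:**
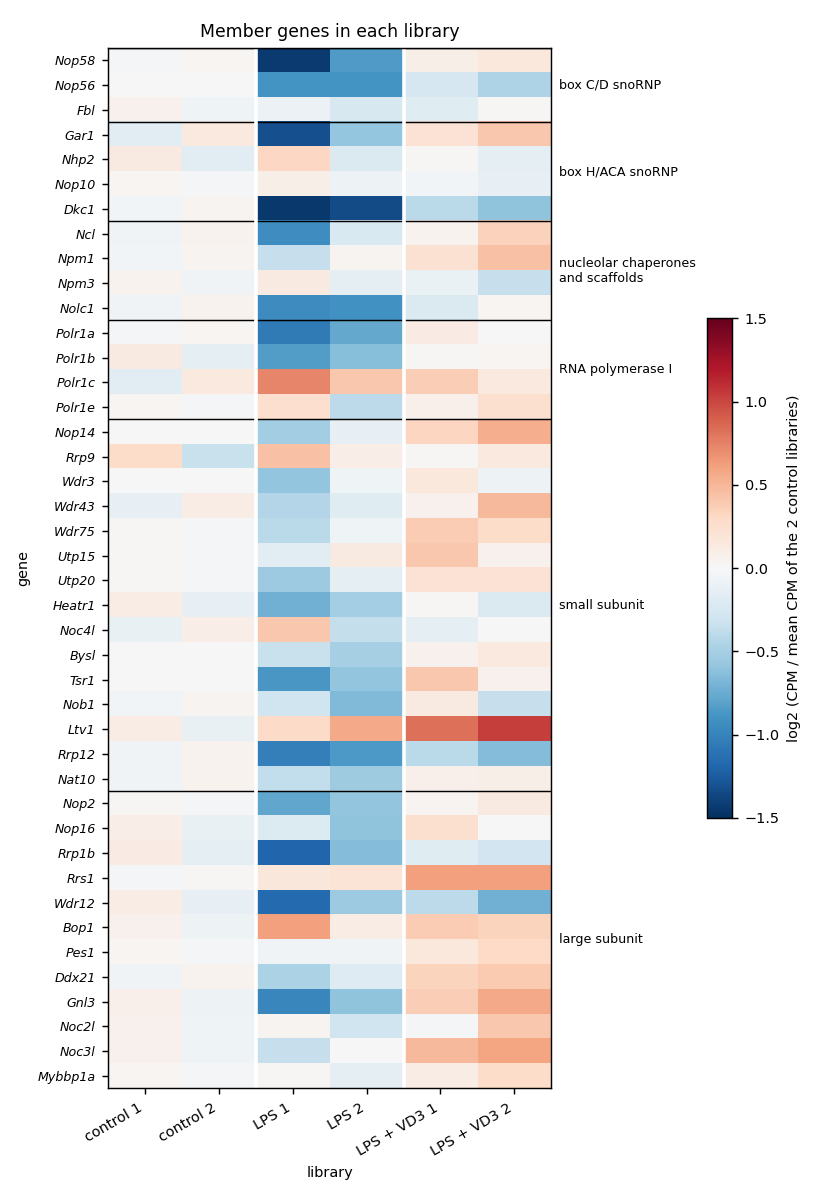
Level of each of the 42 genes in each of the 6 libraries, as log2 of its CPM over the mean CPM of the 2 control libraries, with genes as rows grouped by role, libraries as columns, blue for lower and red for higher. Most rows are blue in the LPS columns and near white or red in the LPS + VD3 columns. Polr1c, Ltv1, Rrs1, Bop1 and Rrp9 are above the control mean in both LPS columns, Bop1 and Rrp9 only slightly in LPS 2.

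In LPS against control, 14 of the 42 genes (33.3%) were lower at an edgeR adjusted p under 0.05, beside 16.2% of all genes tested, and none was higher, beside 15.7% (31.8% called in either direction). At an unadjusted p under 0.05, edgeR had 17 lower and 2 higher, and DESeq2 and limma-voom also called none higher. The median log2 fold change of the 42 genes was -0.32 (all genes 0.01), and the values ran from -1.39 in Dkc1 to 0.58 in Polr1c. Both LPS libraries were below both control libraries in 27 genes, beside 33.6% of all genes, and above them in 4, beside 31.6%. With library totals in place of TMM scaling the count of lower genes was 26 and the median -0.61. The median of all genes was then -0.29, and 4143 of them were called in either direction, in place of 3411. On the TMM scale the count fell without either control library and rose without LPS 2, as the calls over all genes did. The median of the 42 was -0.31 without control 1, -0.30 without control 2 and -0.39 without LPS 2.

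In LPS + VD3 against LPS, 9 of the 42 genes (21.4%) were higher at an edgeR adjusted p under 0.05, beside 2.25% of all genes tested, and none was lower, beside 1.59% (3.83% called in either direction). None of the 42 was lower at an unadjusted p under 0.05 either, nor did DESeq2 or limma-voom call any lower. The median log2 fold change was 0.51 (all genes 0.00), from -0.32 in Polr1c to 1.25 in Gnl3. Both LPS + VD3 libraries were above both LPS libraries in 28 genes, beside 24.6% of all genes, and below them in 1, Polr1c, beside 23.5%. The calls depended on single libraries, as did those over all genes. Most of the 9 were lost without a control or an LPS + VD3 library, and more of the 42 were called without LPS 2. The median moved less, between 0.42 and 0.63 over the 6 fits that left out a library.

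The genes called lower with LPS and higher with VD3 were 8: Nop58, Gar1, Dkc1, Nolc1, Polr1a, Tsr1, Nop2 and Gnl3. Over all genes tested this pattern held for 93, or 0.867%. The opposite pattern held for 0.849% of all genes and for 0 of the 42. Another 6 genes were called only as lower in LPS (Nop56, Polr1b, Heatr1, Rrp12, Rrp1b and Wdr12), Ddx21 was called only as higher with VD3, and 27 were called in neither comparison. Separation of the libraries in both steps was seen in 23 of the 42 genes, beside 11.1% of all genes. The genes were picked for this pattern, so these counts describe the choice.

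Among box C/D proteins, Nop58 and Nop56 were low in LPS and Fbl was close to its control level. Nop58, a core protein that holds the guide RNA (GRCm38 chr1:59684971-59719044, plus strand), stood at 78.1 and 81.3 CPM in control, 29.3 and 44.1 with LPS, and 84.8 and 88.6 with LPS + VD3. Its log2 fold change was -1.12 ± 0.20 (SE, 2 libraries a group, as in all that follow) in LPS against control and 1.24 ± 0.20 in LPS + VD3 against LPS, and no group overlapped another. Nop56, its partner in the same particle, was at 89.8 and 91.0 CPM in control, 48.6 in both LPS libraries, and 76.0 and 65.7 with LPS + VD3. The VD3 libraries of Nop56 thus stayed below control, with log2 fold changes of -0.90 ± 0.16 and 0.54 ± 0.16. Fbl, the fibrillarin methyltransferase, was at 82.2 and 74.9 CPM in control, 73.7 and 66.8 with LPS, and 69.3 and 79.8 with LPS + VD3. Its groups lay close together, with log2 fold changes of -0.16 ± 0.16 and 0.09 ± 0.16.

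Nop56 and Nop58 also carry box C/D snoRNAs within their genes, as do Gnl3, Ncl, Tsr1 and Wdr43. The sequences below show the kind of RNA that Nop56, Nop58 and Fbl assemble on, and were picked because box C (TGATGA) near the 5′ end and box D (CTGA) near the 3′ end, both in capitals, were found letter for letter. Of the 10 box C/D snoRNAs in the 6 host genes 5 held both, while Snord53 lacked an exact box D and Snord57 an exact box C. Snord19, Snord70 and Snord91a lacked an exact box C, and their last CTGA lay slightly further from the 3′ end than the search allowed. They were read from GRCm38 at the GENCODE M21 positions of the snoRNA genes, on the strand of the host.
Snord11 in Nop58, intronic, chr1:59704790-59704873: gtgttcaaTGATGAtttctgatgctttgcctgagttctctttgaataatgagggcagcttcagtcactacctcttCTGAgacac
Snord110 in Nop56, intronic, chr2:130275506-130275573: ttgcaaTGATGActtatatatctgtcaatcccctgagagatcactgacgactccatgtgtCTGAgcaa
Snord69 in Gnl3, over an annotated exon, chr14:31014287-31014366: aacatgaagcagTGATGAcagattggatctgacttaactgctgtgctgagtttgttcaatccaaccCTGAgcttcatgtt
Snord82 in Ncl, intronic, chr1:86356261-86356330: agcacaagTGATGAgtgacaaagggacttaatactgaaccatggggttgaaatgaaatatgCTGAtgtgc
Snord92 in Wdr43, intronic, chr17:71631281-71631365: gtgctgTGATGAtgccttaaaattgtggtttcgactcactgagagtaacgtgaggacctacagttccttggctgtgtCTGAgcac
The count table has rows for these snoRNAs, but none had more than 1 count over all 6 libraries, and a library kit for messenger RNA is not made to keep such short RNAs. The host values are those of the host's messenger RNA.

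Of the 42 genes, 6 host a named snoRNA: Gnl3, Ncl, Nop56, Nop58, Tsr1 and Wdr43. In all 6, the LPS libraries were below both control libraries and the LPS + VD3 libraries above both LPS libraries, beside 11.1% of all genes tested. The genes were picked on these values, so nothing is read from that count. Their median log2 fold change was -0.75 in LPS against control and 0.86 in LPS + VD3 against LPS. That of the 36 other genes was -0.26 and 0.45. These medians rest on the same values, so nothing is read from their gap either. Of 74 further host genes in the table, 69 were tested: 8 fell (11.6%) and 1 rose (1.45%) with LPS, beside 16.2% and 15.7% of all genes, and 1 rose with VD3, the noncoding host Gas5, beside 2.25%. The 8 lower and 1 higher were 4 and 0 without control 1 or without control 2, 8 and 3 without LPS 1, and 15 and 12 without LPS 2. The 1 higher with VD3 was 12 without LPS 2 and 0 without control 1 or 2 or either LPS + VD3 library. Their median was 0.04 with LPS, or -0.26 with library totals, and 0.16 with VD3.

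Among box H/ACA proteins, Dkc1 and Gar1 were low in LPS, and Nhp2 and Nop10 had overlapping groups. Dkc1, the pseudouridine synthase dyskerin (GRCm38 chrX:75095854-75109777, plus strand), was at 59.6 and 63.1 CPM in control, 22.6 and 24.3 with LPS, and 46.3 and 40.4 with LPS + VD3. All its groups were apart, with log2 fold changes of -1.39 ± 0.17 and 0.89 ± 0.18, and its LPS + VD3 libraries stayed below control (-0.50 ± 0.17). Gar1, which helps position the substrate RNA, had 11.8 and 14.7 CPM in control, 5.33 and 8.90 with LPS, and 15.5 and 17.5 with LPS + VD3. The low level of Gar1 goes with a wider error, as in -0.90 ± 0.29 and 1.21 ± 0.28. Nhp2, a core protein that binds the RNA, was at 65.4 and 53.4 CPM in control, 73.9 and 51.0 with LPS, and 60.1 and 54.1 with LPS + VD3. Nop10, the smallest core protein, was at 25.4 and 24.2 CPM in control, 26.3 and 23.5 with LPS, and 24.1 and 22.7 with LPS + VD3. For these 2 genes the log2 fold changes lay between -0.13 and 0.07 in both steps.

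Among the nucleolar chaperones and scaffolds, Nolc1 and Ncl were low in LPS. Nolc1, a scaffold that binds snoRNPs, was at 76.2 and 81.6 CPM in control, 41.0 and 42.1 with LPS, and 68.0 and 80.8 with LPS + VD3. Its LPS libraries lay close together and below all the others (log2 fold changes -0.92 ± 0.17 and 0.84 ± 0.17). Ncl, the abundant RNA-binding protein nucleolin, had 626 and 678 CPM in control, 343 and 557 with LPS, and 676 and 832 with LPS + VD3. The 2 LPS libraries of Ncl differed widely, and its log2 fold changes were -0.54 ± 0.22 and 0.74 ± 0.22. Npm1, the histone and ribosome chaperone nucleophosmin, had 455 and 480.4 CPM in control, 367 and 481 with LPS, and 547 and 635 with LPS + VD3. LPS and control overlapped in Npm1, and only the LPS + VD3 libraries stood above the rest (0.48 ± 0.17 against LPS). Npm1 has processed copies in the genome, so its count is uncertain. Npm3, a nucleophosmin relative, kept between 13.5 and 18.9 CPM in all libraries.

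Of the RNA polymerase I subunits, Polr1a and Polr1b were low in LPS and Polr1c was high. Polr1a, the largest catalytic subunit (GRCm38 chr6:71909053-71984935, plus strand), was at 53.1 and 55.3 CPM in control, 26.1 and 32.0 with LPS, and 58.8 and 54.1 with LPS + VD3. Polr1b, the other catalytic subunit, was at 26.2 and 21.6 CPM in control, 13.3 and 15.4 with LPS, and 24.3 and 24.5 with LPS + VD3. For both subunits the LPS libraries were lowest and LPS + VD3 overlapped control, with log2 fold changes of -0.90 ± 0.18 and 0.96 ± 0.18 for Polr1a and -0.73 ± 0.21 and 0.76 ± 0.21 for Polr1b. Polr1c, a subunit shared with RNA polymerase III, ran the other way, with 16.1 and 19.9 CPM in control, 29.96 and 23.9 with LPS, and 23.2 and 19.9 with LPS + VD3. Its log2 fold changes were 0.58 ± 0.21 and -0.32 ± 0.21. Polr1e, an accessory subunit, overlapped between control and LPS at 9.31 to 14.6 CPM.

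Of the 15 small subunit factors, 3 (20%) were called lower in LPS (Heatr1, Tsr1 and Rrp12), near the 16.2% of all genes, and 1 (6.67%) higher with VD3 (Tsr1), beside 2.25%. Tsr1, a GTPase-like factor of late maturation, was at 60.0 and 60.4 CPM in control, 32.8 and 39.9 with LPS, and 79.98 and 62.9 with LPS + VD3, with log2 fold changes of -0.73 ± 0.19 and 0.97 ± 0.19. Heatr1, which supports early processing and polymerase I transcription, was at 118 and 100.3 CPM in control, 66.3 and 76.9 with LPS, and 110.3 and 94.2 with LPS + VD3. Both genes had their lowest values in LPS, and LPS + VD3 reached the control range in Heatr1 and exceeded it in Tsr1. Nop14, a scaffold of the early particle, was at 44.5 and 44.7 CPM in control, 31.2 and 40.9 with LPS, and 55.9 and 65.1 with LPS + VD3. Wdr43, of the complex that binds the precursor during transcription, was at 48.8 and 57.2 CPM in control, 39.0 and 46.7 with LPS, and 55.5 and 74.4 with LPS + VD3. Utp20, a large scaffold, was at 96.1 and 93.4 CPM in control, 64.8 and 86.4 with LPS, and 110.5 and 110.3 with LPS + VD3. In Nop14, Wdr43 and Utp20 the step to LPS was small (log2 fold changes of -0.33 to -0.31) and the step with VD3 larger (0.55 to 0.75).

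Ltv1, which helps release the small subunit for export, was higher at each step. It was at 52.1 and 44.6 CPM in control, 59.1 and 71.4 with LPS, and 85.6 and 99.1 with LPS + VD3, with no overlap between any groups and a log2 fold change of 0.94 ± 0.18 in LPS + VD3 against control. Rrp12, an export factor, stayed low after VD3, with 30.2 and 32.5 CPM in control, 15.4 and 17.2 with LPS, and 23.7 and 19.9 with LPS + VD3. Of the other small subunit factors, Wdr75, Bysl and Nat10 (an RNA cytidine acetyltransferase) were lower in both LPS libraries and higher in both LPS + VD3 libraries, with log2 fold changes of -0.45 to -0.22 and then 0.52 to 0.55. Wdr3 and the endonuclease Nob1 were lower in LPS (-0.30 and -0.47) but overlapped with VD3. Utp15, Rrp9 and Noc4l overlapped in both steps, at log2 fold changes of -0.01 to 0.28 and -0.19 to 0.25.

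Of the 12 large subunit factors, 4 (33.3%) were called lower in LPS (Nop2, Rrp1b, Wdr12 and Gnl3), beside 16.2% of all genes, and 3 (25%) higher with VD3 (Nop2, Ddx21 and Gnl3), beside 2.25%. Gnl3, the nucleolar GTPase nucleostemin (GRCm38 chr14:31012433-31019152, minus strand), was at 57.6 and 51.9 CPM in control, 27.7 and 36.0 with LPS, and 71.0 and 81.0 with LPS + VD3. It had the largest log2 fold change with VD3 among the 42 genes, 1.25 ± 0.19 after -0.78 ± 0.19 with LPS, and its LPS + VD3 libraries exceeded both control libraries. Nop2, a cytosine methyltransferase of ribosomal RNA, was at 53.6 and 52.3 CPM in control, 30.8 and 34.999 with LPS, and 54.6 and 58.3 with LPS + VD3 (-0.69 ± 0.17 and 0.78 ± 0.17). Ddx21, an RNA helicase that works on polymerase I and II templates, was at 205 and 220.2 CPM in control, 153 and 186 with LPS, and 268 and 278 with LPS + VD3 (-0.33 ± 0.15 and 0.69 ± 0.15). Nop2 thus returned to about its control level, while Ddx21 went above it. Rrp1b, a nucleolar partner of chromatin and phosphatase, was at 21.4 and 18.0 CPM in control, 8.62 and 12.5 with LPS, and 17.4 and 16.1 with LPS + VD3 (-0.89 ± 0.24 and 0.66 ± 0.25).

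The PeBoW complex, which processes the large subunit RNA, had subunits with differing values. Its subunit Wdr12 was lower in LPS and stayed low (-0.82 ± 0.24, then 0.28 ± 0.25), Bop1 was higher in LPS and level with VD3 (0.38 ± 0.20, then -0.02 ± 0.20), and Pes1 was near its control level (-0.05 ± 0.15, then 0.28 ± 0.15). Mybbp1a, a nucleolar Myb-binding protein, was at 163 and 157 CPM in control, 162 and 146 with LPS, and 173 and 193 with LPS + VD3. Noc2l, of the nucleolar complex that carries the large subunit precursor, was at 81.9 and 74.7 CPM in control, 80.2 and 63.5 with LPS, and 77.5 and 103 with LPS + VD3. Control and LPS overlapped in both genes, and so did all groups of Noc2l. Its partner Noc3l overlapped between control and LPS and was higher with VD3 (0.70 ± 0.19). Rrs1, an assembly factor of the large subunit, was also higher at each step, with 54.0 and 55.1 CPM in control, 61.6 and 62.9 with LPS, and 83.5 and 83.6 with LPS + VD3. Nop16 was lower in both LPS libraries and higher in both LPS + VD3 libraries (-0.39 ± 0.21 and 0.51 ± 0.21).

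**Figure D2:**
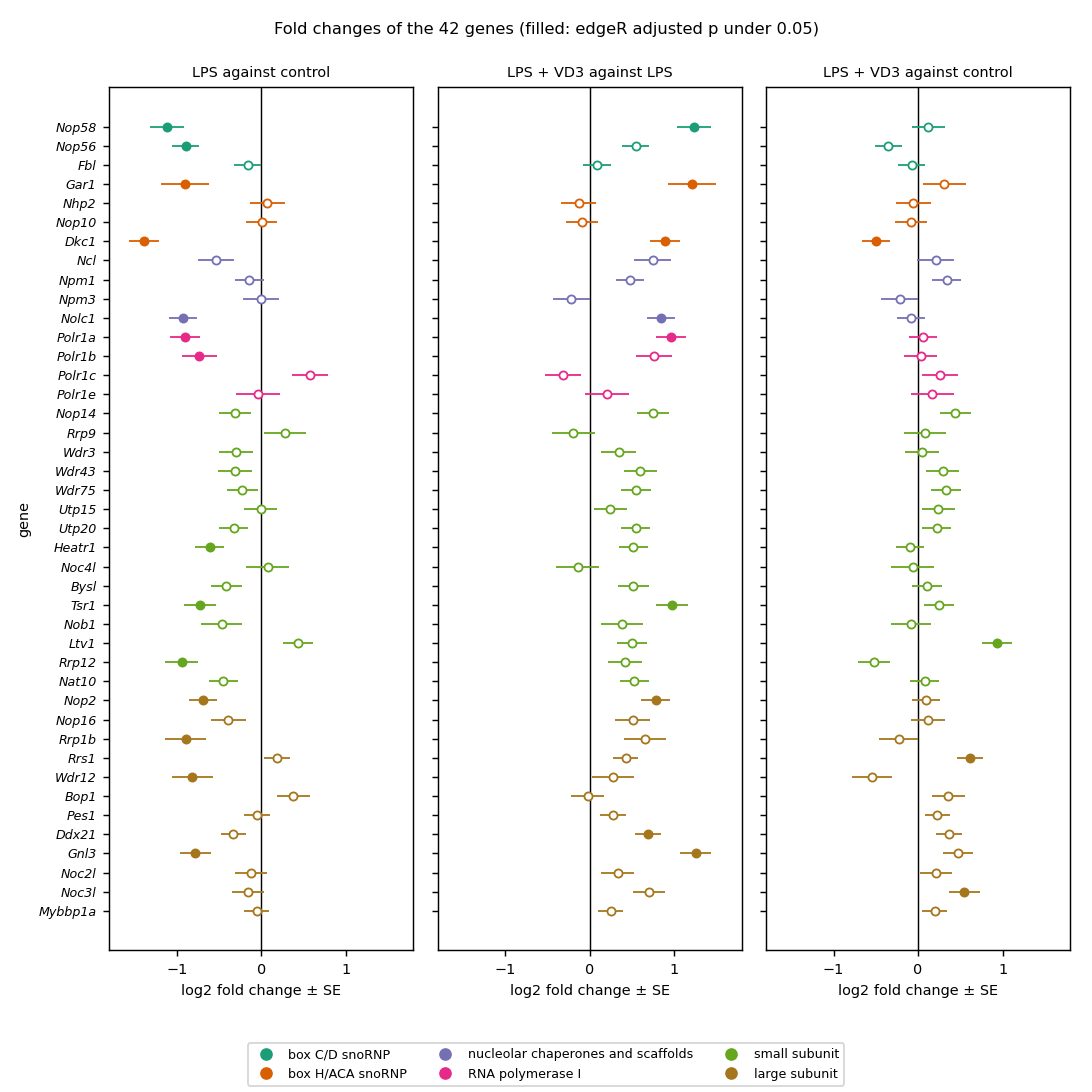
Log2 fold change with its SE for each of the 42 genes in the 3 comparisons, with genes as rows coloured by role and filled points for an edgeR adjusted p under 0.05. The 14 filled points of LPS against control all lie left of 0 and the 9 filled points of LPS + VD3 against LPS all lie right of 0, while LPS + VD3 against control has 4 filled points on both sides.

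In LPS + VD3 against control, most of the 42 genes were back near or above the control level on the TMM scale. At an edgeR adjusted p under 0.05, 3 were higher (Ltv1, Rrs1 and Noc3l), beside 17.7% of all genes tested, and 1 was lower (Dkc1), beside 17.3% (35% called in either direction). The median log2 fold change was 0.12 (all genes 0.01), and 29 of the 42 means were above control. Both LPS + VD3 libraries were above both control libraries in 21 genes, beside 38.4% of all genes, below them in 7, beside 37.4%, and overlapped them in 14. With library totals as the scale, 1 was higher and 4 lower and the median was -0.21, where that of all genes was -0.32. The calls of Rrs1, Noc3l and Dkc1 were lost without control 1 or 2 or either LPS + VD3 library, and that of Ltv1 without control 2.

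Levels per length put the 42 genes in an order that the choice did not use. Per kilobase of the longest protein-coding transcript, the mean control level had a median of 16.2 CPM per kb. Npm1 was highest at 286 CPM per kb, followed by Ncl at 79.5, Fbl at 65.6, Nhp2 at 57.0 and Nop56 at 48.2. The lowest were Polr1e at 4.11, Rrp1b at 4.04 and Wdr12 at 3.04 CPM per kb, with Polr1a at 5.88 and Polr1b at 5.98. Role did not set the order alone. The core snoRNP proteins ran from Fbl, ranked 3 of 42, to Gar1, ranked 30 with a longest transcript of 1.27 kb, and Nop58, ranked 35. The polymerase subunits ran from Polr1c, ranked 25, to Polr1e, ranked 40. Transcripts used in these cells may be shorter than the longest listed, as for Nop58, whose longest transcript of 9.51 kb puts it at 8.38 CPM per kb.

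Promoters of the 42 genes were searched for 2 motifs in RefSeq windows from 250 bases before to 50 after the start site (GRCm38.p6), which were found for 37 of them, all but Bop1, Fbl, Npm1, Rrp12 and Rrs1. CACGTG, the palindromic E-box that Myc and Max bind among other factors, was in the windows of 7 genes (18.9%), beside 8.09% of all 27025 genes with a window. It lay before the start in Nop2 and after it in Ltv1, Mybbp1a, Pes1, Tsr1, Utp20 and Wdr43. The vitamin D response element DR3 was searched as a pair of half-sites, each of which may be AGGTCA, else AGTTCA, else GGGTCA, else GGTTCA, with 3 bases between them on either strand. It was in none of the 37 genes' windows, beside 0.044% of all genes (12 of 27025). A motif that rare was not to be expected in a set of 37, so nothing is read from its absence. The window of Nop2 is shown for its E-box, in capitals, next to those of Dkc1 and Polr1a, which were likewise low in LPS and hold none. Each gives the 250 bases before the start on the plus strand.
Nop2, chr6:125131633-125131882: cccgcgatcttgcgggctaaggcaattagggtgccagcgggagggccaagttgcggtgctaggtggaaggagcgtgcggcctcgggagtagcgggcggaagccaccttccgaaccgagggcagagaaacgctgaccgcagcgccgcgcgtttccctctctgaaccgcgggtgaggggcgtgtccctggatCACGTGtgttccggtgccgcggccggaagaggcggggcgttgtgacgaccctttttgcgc
Dkc1, chrX:75095604-75095853: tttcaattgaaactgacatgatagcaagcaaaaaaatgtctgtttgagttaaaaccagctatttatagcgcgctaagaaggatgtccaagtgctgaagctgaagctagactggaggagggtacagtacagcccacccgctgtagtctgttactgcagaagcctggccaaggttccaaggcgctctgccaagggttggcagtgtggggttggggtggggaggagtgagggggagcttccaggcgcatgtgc
Polr1a, chr6:71908803-71909052: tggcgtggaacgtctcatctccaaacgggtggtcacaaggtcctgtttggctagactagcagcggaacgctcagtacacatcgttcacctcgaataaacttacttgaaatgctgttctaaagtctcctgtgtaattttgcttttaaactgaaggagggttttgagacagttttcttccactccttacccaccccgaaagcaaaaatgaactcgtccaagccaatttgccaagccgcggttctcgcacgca
The genes with and without an E-box in the window had medians of 0.55 over 7 and 0.52 over 30 in LPS + VD3 against LPS. In LPS against control these were -0.31 and -0.40. The genes were picked on these values, so nothing is read from the medians. A match is only a match of letters, and its absence says nothing of binding elsewhere.

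To see how far the rest of the pathway moved, 124 other ribosome biogenesis factors were tested. This list, too, was drawn up with earlier results of these data known. It leaves out the chosen genes, which were picked because several fell with LPS and rose with VD3. Its counts and medians can therefore be shaped by that choice, and its p-values are no independent check. With LPS the 124 factors went both ways: 6 fell and 6 rose (4.84% each), beside 16.2% and 15.7% of all genes. Their median log2 fold change was 0.05. With library totals 25 fell and 4 rose, at a median of -0.25 beside -0.29 for all genes. The 6 that fell were Cd3eap, Utp14a, Wdr46, Ftsj3, Mki67ip and Ddx31. Cd3eap, a polymerase I subunit, went from 24.3 and 25.003 CPM in control to 16.4 and 12.5 in LPS (log2 fold change -0.77 ± 0.21, edgeR adjusted p = 0.018). Mki67ip, a large subunit factor that binds the Ki-67 antigen, went from 50.5 and 55.1 to 33.0 and 31.4 CPM (-0.71 ± 0.18, edgeR adjusted p = 0.0114). Both lost their calls without control 1 or control 2, as did Utp14a, Wdr46, Ftsj3 and Ddx31.

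Of the 6 that rose with LPS, Sbds and Eif6 act at the last step of large subunit assembly. Sbds, which clears the factor Eif6 from the new large subunit, went from 39.4 and 37.5 CPM in control to 125 and 107 in LPS (1.59 ± 0.18, edgeR adjusted p = 7.93e-05). Eif6 itself went from 46.9 and 45.2 to 164 and 95.3 CPM (1.49 ± 0.27, edgeR adjusted p = 0.00204). Rcl1, of the small subunit processome, rose by 1.27 ± 0.23 (edgeR adjusted p = 0.00198). These 3 kept their calls under all 17 alternatives. Rrp7a, Ddx24 and Pak1ip1 rose by 0.61, 0.75 and 0.49 on the log2 scale, and lost their calls without control 1 or control 2. With library totals Rrp7a and Pak1ip1 were not called either. The counts of 6 lower and 6 higher fell without either control library and rose without LPS 2, as the calls over all genes did. The median of the other factors was -0.04 to 0.06 over the fits that left out a library.

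With VD3 on top of LPS, 6 of the 124 other factors rose (4.84%), beside 2.25% of all genes, and edgeR, DESeq2 and limma-voom called none lower, with 3 lower at an unadjusted edgeR p under 0.05. Their median log2 fold change was 0.25, beside 0.00 for all genes and 0.51 for the 42 chosen genes. The choice itself can give the gap between 0.25 and 0.51, so nothing is read from it. Taf1d, a subunit of the polymerase I promoter factor SL1, went from 11.5 and 17.0 CPM in LPS to 39.8 and 48.4 in LPS + VD3 (1.63 ± 0.23, edgeR adjusted p = 0.00388). Mki67ip went to 53.4 and 65.5 CPM (0.88 ± 0.18, edgeR adjusted p = 0.0241), and Rrp15, of the large subunit, to 22.6 and 29.1 from 13.3 and 13.6 (0.94 ± 0.22, edgeR adjusted p = 0.042). The others were Ftsj3, Gtpbp4 and Mdn1. The count of 6 fell without either control or either LPS + VD3 library and rose without LPS 2, while calls over all genes moved as well. The median of these factors was 0.19 to 0.30 over the fits that left out a library. The call of Taf1d was lost only without LPS + VD3 2. That of Mki67ip was kept under 11 of 17 alternatives, and that of Rrp15 under 8, with DESeq2 among those that lost it. Gtpbp4 kept its call under 9 and Ftsj3 under 7.

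Against control, 23 of the 124 other factors were higher in LPS + VD3 (18.5%) and none lower, beside 17.7% and 17.3% of all genes, and none was lower at an unadjusted edgeR p under 0.05, in DESeq2 or in limma-voom. The median was 0.24 (all genes 0.01). With library totals 5 were higher and 6 lower, at a median of -0.09 beside -0.32 for all genes, so the absolute direction depends on the scale. Sbds had the smallest p, at 128 and 159 CPM (1.90 ± 0.18, edgeR adjusted p = 2.3e-05), then Rcl1 (1.75 ± 0.23) and Ddx24 (1.01 ± 0.15). Taf1d was higher by 1.22 ± 0.22 (edgeR adjusted p = 0.00173), and Rrn3, which recruits polymerase I, by 0.46 ± 0.15 (edgeR adjusted p = 0.0388), a call kept under 7 of 17 alternatives and lost among others in DESeq2, with library totals, with GC offsets and without either control or either LPS + VD3 library. The count of 23 fell without either control or either LPS + VD3 library and rose without either LPS library, while calls over all genes moved as well. The median of these factors was 0.21 to 0.25 over those fits.

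**Figure D3:**
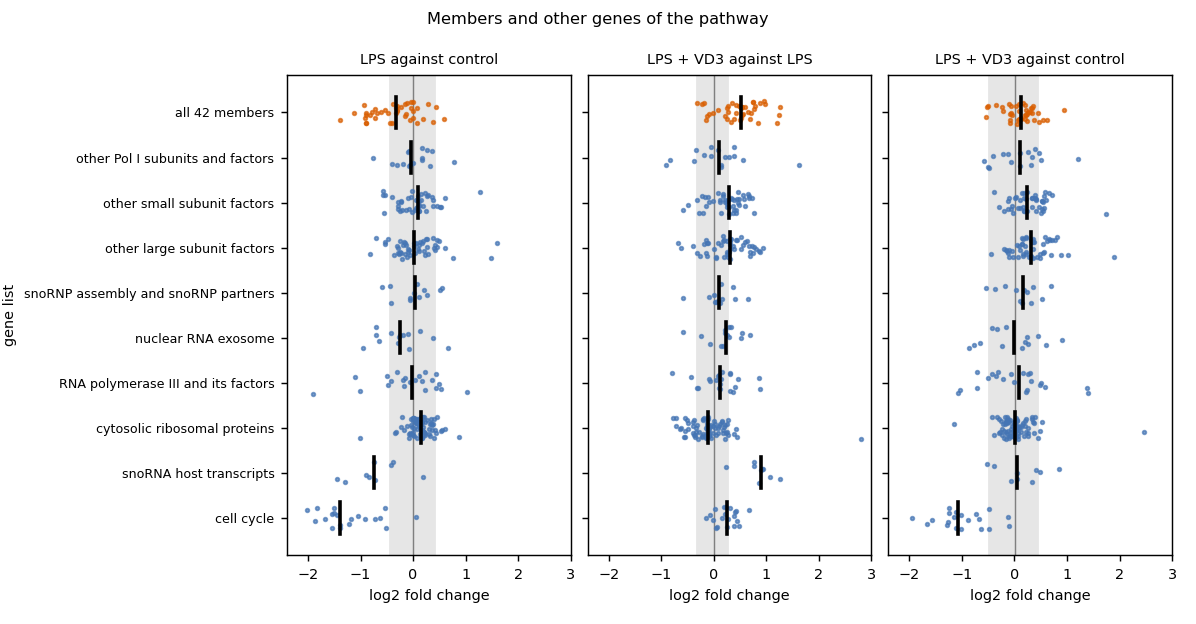
Log2 fold changes of the 42 chosen genes (orange) and of the genes of 9 other lists (blue) in the 3 comparisons, with a black bar at each list's median, a grey line at the median of all genes and a grey band over their interquartile range. The median of the 42 genes is -0.32, then 0.51, then 0.12, that of the ribosomal proteins 0.14, -0.12 and 0.00, and that of the cell cycle genes -1.40, 0.24 and -1.07.

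For genes of the ribosome itself the count of calls depended on LPS 2. Of 81 tested genes of cytosolic ribosomal proteins, 2 rose with LPS (2.47%) and none fell, beside 15.7% and 16.2% of all genes. The median log2 fold change was 0.14. The count of 2 was 25 without LPS 2, 9 with a replicate block and GC offsets, 1 without LPS 1 or either LPS + VD3 library, and 0 without control 1 or without control 2. With library totals none rose and 3 fell, at a median of -0.15. Rpl24, a large subunit protein, went from 296 and 258 CPM to 462 and 384 (0.61 ± 0.16, edgeR adjusted p = 0.0151, lost without control 1 or 2 and with library totals), and the other was Rps4y2. With VD3 none was called in either direction by edgeR, DESeq2 or limma-voom, at a median of -0.12, with 3 lower and 4 higher at an unadjusted edgeR p under 0.05. Many of these genes have near-identical copies, so single values are uncertain.

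RNA polymerase III, which makes 5S and transfer RNA, and the nuclear exosome, which trims precursors, had mixed values. Of 22 polymerase III genes 2 fell (9.09%) and 1 rose (4.55%) with LPS, beside 16.2% and 15.7% of all genes. Polr3g fell by 1.91 ± 0.32 (edgeR adjusted p = 0.00108), to 3.69 and 2.83 CPM from 10.1 and 14.4, and Polr3d rose by 1.02 ± 0.20 (edgeR adjusted p = 0.0027). Of 14 exosome genes 3 fell with LPS (21.4%), near the 16.2% of all genes. Among them were Exosc2, lower by 0.96 ± 0.22 (edgeR adjusted p = 0.00739), and the nuclease Dis3, by 0.71 ± 0.18. The calls of Exosc2 and Polr3d were lost without control 1, that of Dis3 without control 1 or 2, and that of Exosc8, the other exosome gene, under 8 of 17 alternatives. With VD3, edgeR called no gene of either list, with 2 polymerase III and 3 exosome genes higher at an unadjusted p under 0.05, and DESeq2 called 1 polymerase III gene higher and limma-voom none.

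Among noncoding transcripts that host snoRNAs, 9 were tested and 2 fell with LPS (22.2%), Gas5 and Snhg5, near the 16.2% of all genes. Gas5 alone rose with VD3 (11.1%), beside 2.25% of all genes, and the median of the 9 was -0.74 with LPS and 0.90 with VD3. Gas5 was at 39.9 and 33.2 CPM in control, 18.1 and 21.2 with LPS, and 40.2 and 35.2 with LPS + VD3 (-0.89 ± 0.20, edgeR adjusted p = 0.00616, and 0.94 ± 0.20, edgeR adjusted p = 0.0309). The call with LPS was lost without control 1, and that with VD3 without control 1 or 2 or either LPS + VD3 library. Snhg5 fell by 1.29 ± 0.29 on the log2 scale, at 7.71 and 8.33 CPM in control and 3.28 and 3.24 in LPS, a call lost in DESeq2 and without control 2.

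Myc, a transcription factor that activates genes of this pathway, was at 48.8 and 52.6 CPM in control, 23.8 and 19.2 with LPS, and 47.7 and 62.7 with LPS + VD3. It fell by 1.24 ± 0.20 with LPS (edgeR adjusted p = 0.00107) and rose by 1.36 ± 0.21 with VD3 (edgeR adjusted p = 0.006), a call lost without LPS + VD3 2. Its partner Max was at 0.48 ± 0.19 and 0.30 ± 0.18, and did not pass in either step. Mxi1, which competes with Myc for Max, fell with LPS by 0.65 ± 0.18 (lost without control 1 or 2) and was at -0.48 ± 0.19 with VD3, and Mlx rose with LPS by 0.68 ± 0.16, a call lost with library totals and without control 1 or 2. Of 8 tested genes of the Myc network, 2 fell (25%) and 1 rose (12.5%) with LPS, beside 16.2% and 15.7% of all genes. Only Myc rose with VD3 (12.5%), beside 2.25%, and the median of the 8 was -0.06. In LPS + VD3 against control Max and Mlx were higher (25%) and Mxi1 lower (12.5%), beside 17.7% and 17.3%. Those calls of Max and Mlx were lost with library totals. The part of Myc in the levels of the 42 genes was not tested.

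Most cell cycle genes fell with LPS and were still lower than control after VD3. Of 20 tested, 17 fell with LPS (85%), beside 16.2% of all genes, at a median of -1.40. With VD3 edgeR and limma-voom called none, while DESeq2 called 1 higher. The median with VD3 was 0.24, with 5 higher at an unadjusted edgeR p under 0.05. In LPS + VD3 against control 16 were still lower (80%), beside 17.3% of all genes, at a median of -1.07. Mcm6, a helicase subunit of DNA replication, was at 172 and 167 CPM in control, 43.5 and 52.0 with LPS, and 58.2 and 56.3 with LPS + VD3.

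**Figure D4:**
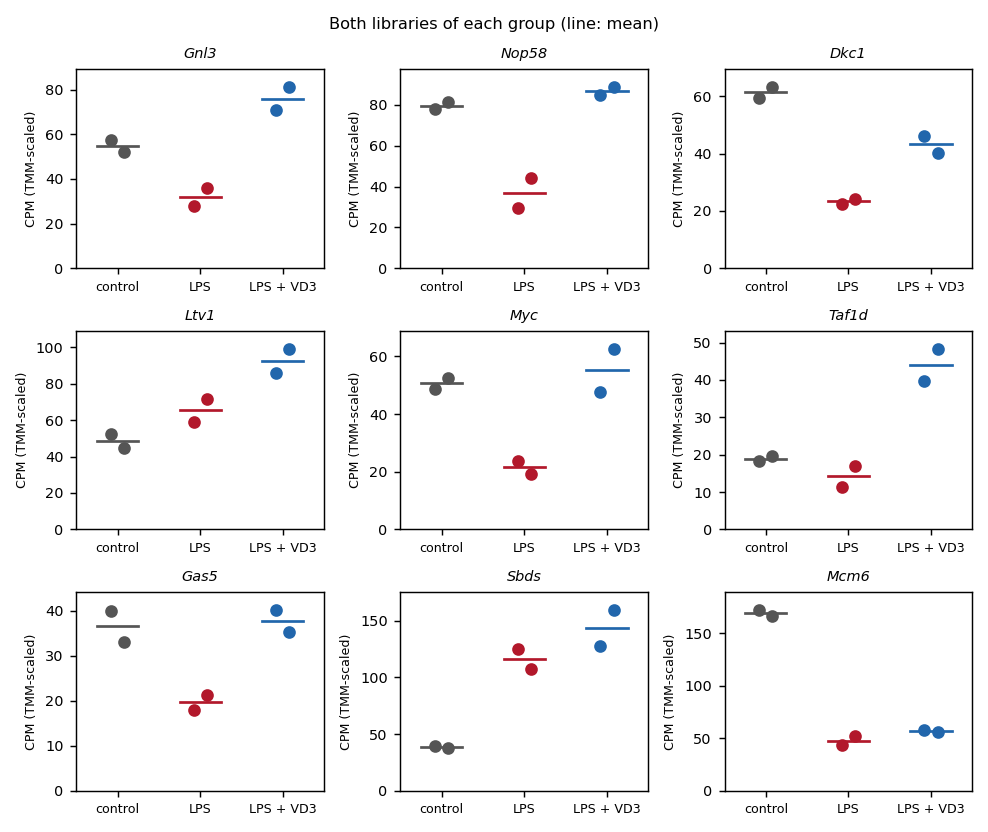
CPM of 9 genes in both libraries of each group (points) with the group mean (line), on axes that start at 0. Gnl3, Nop58, Dkc1, Myc and Gas5 are lowest in LPS, Ltv1 and Sbds are lowest in control, Taf1d is highest in LPS + VD3 and Mcm6 is high only in control.

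The GC content of the 42 genes was set beside the difference between libraries. Its median was 50.3%, beside 50.0% for all genes tested, and it ran from 41.9% in Nop58 to 59.8% in Rrp9. LPS 1 minus LPS 2 was positive in 17 of the 42 genes, with a median of -0.17 on the log2 scale, and rose with GC over them (Spearman's rho 0.62). Over the same genes, GC had a rho of 0.26 with the log2 fold change in LPS against control and -0.43 with that in LPS + VD3 against LPS. These correlations are across genes of the same libraries and carry no p-value. With GC offsets in the fit, 19 of the 42 genes were called lower and 2 higher with LPS, 17 were higher with VD3, and the medians were -0.35 and 0.50. That fit called more of all genes too, 4538 in place of 3411 with LPS and likewise more with VD3. The larger counts are therefore not read as a result about the 42 genes.

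**Figure D5:**
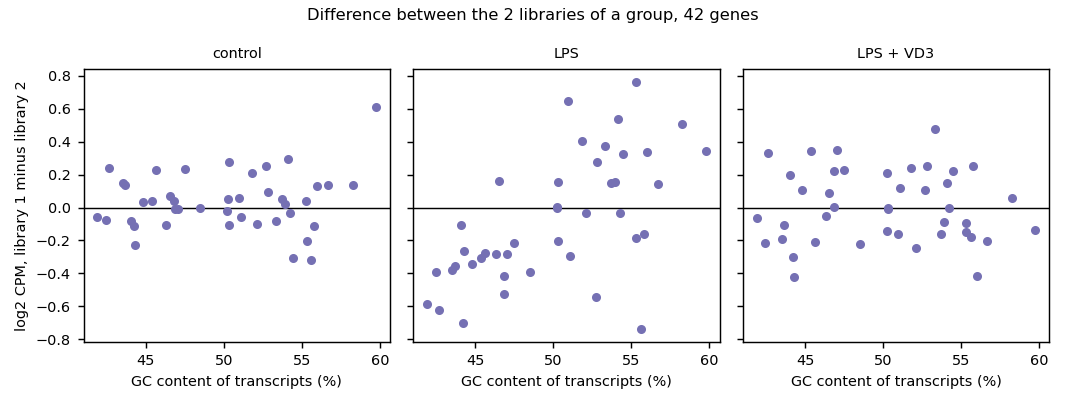
Difference in log2 CPM between the 2 libraries of each group against the GC content of each gene's transcripts in percent, for the 42 genes, with a panel per group. In LPS the points climb from left to right, with a rho of 0.62, and the genes of lowest GC lie below 0, while the control and LPS + VD3 panels scatter around 0.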

How the data were processed

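RNA-seq of 6 libraries was analysed from a table of counts per gene that the authors deposited as whole numbers. The labels' protocols give a KAPA mRNA HyperPrep kit, and TopHat2, edgeR and the mm10 build are named in the submitters' processing notes, with versions, the counting program, its annotation and its use of strand not given in the sources used here. A second deposited table holds log2 values, which equal log2(CPM + 1) of those counts to within 0.00423 and served only as an alternative. The 42 genes and all other gene lists were chosen with earlier results of these data known.

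Counts were fitted with edgeR 4.0.16 in R 4.3.3 (TMM scaling, filterByExpr with a minimum count of 10 and a minimum total of 15, quasi-likelihood test, 3 group means over 6 libraries, 3 residual and 7.01 prior degrees of freedom), and p-values were adjusted by Benjamini-Hochberg over 10724 genes. The call threshold was an adjusted p of 0.05. SE is the log2 fold change over the square root of F. CPM is scaled by TMM. Values in every library are given for genes separated in both steps, up to 14 by size with VD3, for up to 3 of the highest CPM per role and for any opposite mover. Of other lists up to 3 genes per comparison of smallest p are named, plus Myc. Other genes were named after their values were seen. Alternatives were other scalings, DESeq2 1.42.0, limma 3.58.1 (voom, and log2 values with a pseudocount of 0.5 or 1), other filters, GC offsets, a replicate block and each library left out. Those for ribosomal proteins and other snoRNA hosts were chosen after seeing the data. Gene positions and GC are from GENCODE M21 (GRCm38), promoters from RefSeq (GRCm38.p6).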

Additional observations from a re-analysis of the deposited data

How the results depend on the processing

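The 42 genes' median kept its sign under all 17 alternatives in LPS against control (-0.62 to -0.29) and in LPS + VD3 against LPS (0.42 to 0.63). No called gene that was followed through them changed sign, while Mdn1, Rps4y2 and Mcm6 were not followed. In LPS + VD3 against control the median did change sign, from 0.12 to -0.21 with library totals, -0.19 with the deposited log2 table and -0.20 with log2(CPM + 0.5). Counts of calls moved more. Library totals, the deposited log2 table and log2(CPM + 0.5) gave for LPS against control 26, 25 and 26 of the 42 genes lower and 25, 23 and 25 of the 124 other factors lower. For LPS + VD3 against control they gave 4 lower and 1 higher of the 42, and 6 lower and 5 higher of the 124. DESeq2 gave 2 other factors lower with LPS, and against control 0 of the 42 lower and 10 other factors higher with LPS + VD3. RLE scaling gave 3 other factors higher with VD3, and log2(CPM + 0.5) gave 2. With no filter, 3 other factors were lower with LPS, 169 genes were called with VD3 (411 in the fit reported), with 1 of the 42 and 1 other factor higher, and against control 0 of the 42 were lower and 13 other factors higher. With only the libraries compared, 3 other factors were lower with LPS, 258 genes were called with VD3, with 2 of the 42 and 1 other factor higher, and against control 4 of the 42 were lower and 8 higher and 3 other factors lower and 39 higher. GC offsets gave with LPS 2 of the 42 higher and 11 other factors lower and 10 higher, with VD3 853 genes called, 17 of the 42 and 19 other factors higher, and against control 3 of the 42 lower and 5 higher. Replicate numbers were not taken to pair libraries in the fit reported. Deviations of equal numbers correlated at 0.15, 0.08 and 0.18, which cannot decide the matter, since a group of 2 libraries gives a single deviation per gene. The labels of the LPS + VD3 libraries do name LPS1 and LPS2, without saying what the numbers share, and the pair of LPS and LPS + VD3 had the highest of these correlations, so a shared origin there was not settled. With the replicate block all calls of the 42 genes were kept, 1 was higher with LPS, 1152 genes were called with VD3, with 17 of the 42 and 17 other factors higher and 1 lower, and against control 2 of the 42 and 1 other factor were lower. The replicate block with GC offsets gave with LPS 2 of the 42 higher and 16 other factors lower and 10 higher, with VD3 1347 genes called, 22 of the 42 and 24 other factors higher and 1 lower, and against control 3 of the 42 and 1 other factor lower and 5 of the 42 higher. Leaving out each library gave ranges. For LPS against control these were 1940 to 4829 genes called (3411 in the fit reported), 5 to 19 of the 42 lower and 0 to 2 higher, and 0 to 22 other factors lower and 3 to 19 higher. For LPS + VD3 against LPS they were 55 to 3670 genes called, 0 to 23 of the 42 higher, and 0 to 11 other factors lower and 0 to 37 higher. For LPS + VD3 against control they were 2126 to 5410 genes called (3749 in the fit reported), 0 to 4 of the 42 lower and 0 to 8 higher, and 0 to 3 other factors lower and 4 to 46 higher. A lone library is then assumed to vary like the other groups. The cause of these moves was not tested, beyond fewer libraries or other genes tested. With 2 libraries a group, low genes such as Gar1 carry SEs of 0.26 to 0.29.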

Other observations

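Among ribosomal protein genes, Rpl30 stood at 8.57 and 46.8 CPM in control, 19.9 and 24.1 with LPS, and 30.6 and 277 with LPS + VD3. Its high value came from LPS + VD3 2 alone, and near-identical copies make its count uncertain.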
